A study of Mus musculus with 25 samples.

Results

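Stox2, Phex, Zswim6, Hmcn1, Tmem37, Slc25a25 and Nav2 are 7 of the 47729 genes in the bulk count table of sorted lung cells, and they were selected on values measured in those libraries. The first 6 passed the test of Fas-/- against Fas+/+ mice at 6 weeks after bleomycin, and Nav2 passed the test of whether the genotype difference changed between weeks 3 and 6. RNA came from Lin- lung cells, the cells left after those carrying the leukocyte marker CD45, the endothelial marker CD31 and the epithelial marker CD326 were removed. The mice carried floxed alleles of Fas, a death receptor, and a Cre recombinase that tamoxifen activates and the Col1a1 promoter drives (Col1-CreERT2;Fas fl/fl). Bleomycin, which injures the lung and induces fibrosis, was instilled into the airway, and the mice then received tamoxifen, which deletes Fas in Col1a1-expressing cells (Fas-/-), or corn oil, which leaves it intact (Fas+/+). Genotype and tamoxifen cannot be told apart in these groups, and the deletion is directed to cells that express Col1a1. Cells were taken at 3 and 6 weeks from both genotypes, and from naive mice of the same Col1-CreERT2;Fas fl/fl genotype without bleomycin. Bulk RNA-seq had 4 libraries in each of these 5 groups, and single-cell RNA-seq had 1 library per group, made from pooled mice. The naive mice are not described as instilled or injected. In comparisons with them, bleomycin cannot be told apart from the instillation and injections. The labels number the bulk replicates without tying each to a mouse, so p-values measure the spread between these libraries. The sources used here do not give the age of the mice.

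The 7 genes belong to unrelated families. Phex is an X-linked endopeptidase of the M13 family, best known from bone, where its loss raises the phosphate-regulating hormone Fgf23 and wastes phosphate through the kidney. Hmcn1 encodes hemicentin 1, a very large extracellular matrix protein of the immunoglobulin superfamily that is related to the fibulins. Stox2 carries a winged-helix storkhead box domain, Zswim6 a SWIM-type zinc finger, and Nav2 encodes neuron navigator 2, which acts on the cytoskeleton and was found as a retinoic acid-inducible gene. Tmem37 is a small membrane protein related to the gamma subunits of voltage-gated calcium channels, and Slc25a25 is a calcium-regulated carrier that exchanges ATP-Mg for phosphate across the inner mitochondrial membrane. Lipofibroblasts, the lipid-storing fibroblasts of the alveolar wall, are known for Tcf21 and Plin2, and fibrotic lungs hold collagen-producing cells known for Cthrc1 and Col1a1.

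The bulk libraries held 11819700 to 25189096 counts, with a median of 20122870. Levels are given as CPM, counts scaled to an equal library size after TMM normalization. Calls needed an adjusted p of at most 0.05 in edgeR's quasi-likelihood test, run over 15773 genes. Each difference between groups is on the log2 scale with its SE. The targeted gene, Fas, was counted over all of its exons, of which 1 is floxed, so its level does not check the deletion. Its median CPM was 36.3 in Fas+/+ and 38.9 in Fas-/- mice at week 3, and 29.9 and 39.7 at week 6. Fas-/- differed from Fas+/+ by 0.11 (SE 0.196, adjusted p = 0.910) at week 3 and by 0.36 (SE 0.197, adjusted p = 0.719) at week 6. The labels call the cells primary lung fibroblasts, and markers of endothelial and epithelial cells were present too. The summed CPM of 8 blood endothelial markers was 163 to 438 in naive mice and reached 9087 at week 3. For a fit without them, the library highest in these markers was picked in each bleomycin group, whatever its distance from the others. These 4 libraries were week 3 Fas+/+ replicate 1, week 3 Fas-/- replicate 4 and replicate 2 of both week 6 groups, Fas+/+ and Fas-/-. They held 9087, 7976, 1730 and 2620 CPM, beside 3106, 1072, 1100 and 432 CPM in the next library of each group. The single-cell libraries held 603 to 3240 cells after filtering, 12059 in all, with a median of 5768 to 8896 UMIs per cell. Of these cells, 1540 (12.8%) carried a barcode that another library also held, and in the naive library this was 350 of 603 cells (58.0%). Scrublet marked 46 cells (0.381%) as doublets, too few for the caller to have worked, so doublets remain in the classes below. In bulk samples, fewer cells of a type and less RNA per cell cannot be told apart.

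The values that chose the genes are given first, as a description. At week 6, 8 of 15773 genes (0.0507%) were called between the genotypes. Those called besides the 6 genes above were Gp5, a platelet glycoprotein, with a log2 difference of -4.37, and the lipid transporter Abca5, with -0.60. In Fas-/- mice Phex was 0.91 (SE 0.149) higher, Hmcn1 0.64 (SE 0.111) higher, Zswim6 0.58 (SE 0.10) higher and Stox2 0.42 (SE 0.0608) higher. On the lower side, Tmem37 was at -1.46 (SE 0.233) and Slc25a25 at -1.02 (SE 0.169). Adjusted p-values of these 8 genes ran from 0.0275 for Stox2 to 0.0371 for Abca5, Zswim6 and Hmcn1, and the next gene, Slc4a5, was at 0.0511 with a difference of -2.37. The genotype difference changed between weeks 3 and 6 in 1 of 15773 genes (0.00634%), Nav2, by -0.79 (SE 0.114, adjusted p = 0.0269), and the next gene, the interferon regulator Irf7, was at 0.0742. Later values of these contrasts are descriptions too, and the tests below use week 3 or both genotypes averaged.

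**Figure D1:**
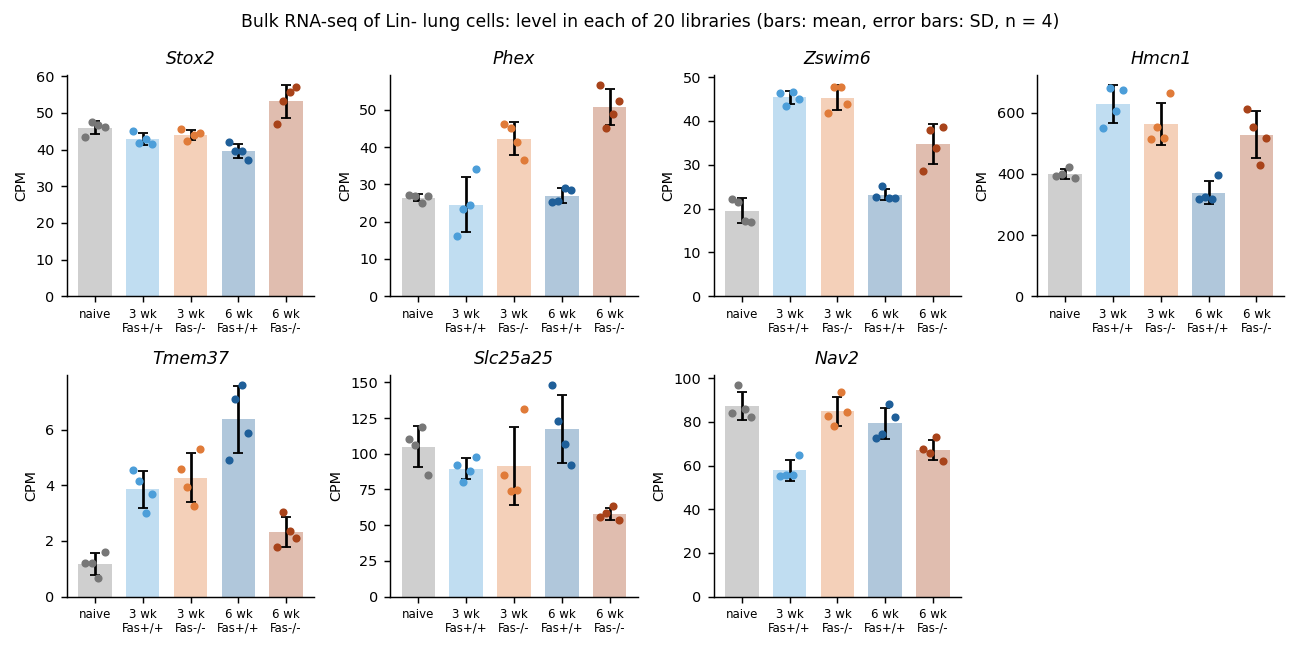
CPM of the 7 genes (y axis, from 0) in the 5 groups of bulk libraries (x axis), with 1 point per library, bars for the mean and error bars for the SD over 4 libraries. Phex lies higher in the Fas-/- groups at both weeks, Zswim6 is highest at week 3 in both genotypes (41.9 to 47.7 CPM), and Tmem37 is lowest in naive mice (0.669 to 1.60 CPM).

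The week 3 difference did not choose the first 6 genes, but the week 3 libraries helped set the spread in the fit that chose them. With only the compared groups fitted, the week 6 comparison called 1 gene. The week 3 test shares that estimate of the spread and is not independent of the choice. At week 3, 27 of 15773 genes (0.171%) were called between the genotypes, 26 higher and 1 lower in Fas-/- mice. An unadjusted p under 0.05 was found for 1359 genes. Of the 6 genes, 1 passed, and it was Phex. In Fas+/+ mice at week 3 the 4 libraries held 16.1, 23.3, 24.6 and 34.01 CPM of Phex, and in Fas-/- mice they held 46.1, 45.2, 41.2 and 36.5 CPM. Each Fas-/- library was thus above each Fas+/+ library, although the highest Fas+/+ library came close to the lowest Fas-/- one. Phex was 0.79 higher in Fas-/- mice on the log2 scale (SE 0.150, adjusted p = 0.0397), a 1.73-fold difference, and the exact two-sided permutation test gave p = 0.0286, the smallest that 4 against 4 libraries can give. The call stands close to its threshold. It was kept in 5 of 20 fits that each left out 1 library (week 3 Fas+/+ replicate 1 or 4, week 3 Fas-/- replicate 4, or replicate 1 of either week 6 group), and lost in the other 15, with adjusted p-values from 0.00356 to 0.168 and differences from 0.63 to 0.99. Fitted on the compared groups alone it was 0.78 (adjusted p = 0.534), by DESeq2 the adjusted p was 3.48e-04, and without the 4 libraries high in endothelial markers the difference was 0.68 (adjusted p = 0.00221).

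At week 6 the levels of Phex were 25.1, 25.4, 29.01 and 28.4 CPM in Fas+/+ mice and 56.6, 45.0, 48.9 and 52.3 CPM in Fas-/- mice. Naive mice held 27.0, 26.9, 24.9 and 26.9 CPM. The Fas+/+ libraries of week 6 overlapped the naive range. As a description, the 8 Fas-/- libraries of both weeks lay above all 12 others, and those of week 6 were among the libraries by which Phex was chosen. Averaged over genotypes, Phex did not pass the test against naive mice at week 3 (0.28, SE 0.130, adjusted p = 0.0878) and rose at week 6 (0.48, SE 0.131, adjusted p = 0.0285). That call was lost when any of the 4 naive libraries or replicates 2, 3 or 4 of the week 6 Fas+/+ group was left out, at adjusted p-values of up to 0.0947, and with epithelial or lipofibroblast markers as a covariate (0.85 and 0.44, adjusted p = 0.0643 and 0.152).

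Because Phex lies on the X chromosome (chrX:157162075-157415312, minus strand, GRCm38, 22 exons), it was set beside Xist, expressed from the inactive X of females, and the Y-linked Ddx3y. Libraries of 1 group differed in both, and several held both transcripts, such as week 3 Fas-/- replicate 1 with 272 CPM of Xist and 35.4 CPM of Ddx3y. At week 3, the 3 Fas+/+ libraries with 50.3 to 59.8 CPM of Ddx3y held 23.3 to 34.01 CPM of Phex. Replicate 1 of Fas+/+, with 0.0491 CPM of Ddx3y and 599 CPM of Xist, held the lowest level, 16.1 CPM. The 4 Fas-/- libraries, with 35.4 to 59.7 CPM of Ddx3y, were higher in Phex than all of these. In each genotype, the week 3 library lowest in Phex was also the highest in blood endothelial markers. These were Fas+/+ replicate 1 with 9087 CPM and Fas-/- replicate 4 with 7976 CPM of the markers. At week 6, Ddx3y was 48.4 CPM in Fas+/+ replicate 4 and at most 2.10 CPM in replicates 1 to 3. It was 55.5 and 51.5 CPM in Fas-/- replicates 1 and 4, and 7.17 and 0.565 CPM in replicates 2 and 3. With Ddx3y as a covariate, chosen after seeing the data, the week 3 difference was 0.75 (adjusted p = 0.0226 in edgeR). The part of sex in the difference was not tested beyond that.

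In single cells, Phex was concentrated in lipofibroblast-like cells and 1 unnamed mesenchymal cluster. Cells were clustered without these 7 genes, and levels were read as CPM of the UMIs summed over a class, with 95% Poisson intervals that cover counting error only. Phex was highest in cluster 0, 1447 mesenchymal cells led by Saa3, Lcn2 and Mmp3 that were left unnamed, at 49.0 CPM (46.2 to 52.0), and in lipofibroblast-like cells at 46.2 CPM (43.6 to 48.9). These neighbours in the order overlapped in their intervals. They held 39.3% and 42.2% of all Phex UMIs, against 19.29% and 21.99% of the UMIs of all genes. Profibrotic fibroblast-like cells were at 16.3 CPM and adventitial Col14a1 fibroblast-like cells at 14.8 CPM. Blood endothelial-like cells were at 1.41 CPM, with a UMI in 0.783% of cells at a median of 5425 UMIs, against 19.9% of lipofibroblast-like cells at 7267 UMIs. Over the 16 classes the genes whose profile was most like that of Phex (Pearson r of log2(CPM + 1), a description over classes that share libraries) were C7, Meox2, Mfap4, Amph and Vegfd, with r from 0.92 to 0.93, and each of the 5 was highest in lipofibroblast-like cells.

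**Figure D2:**
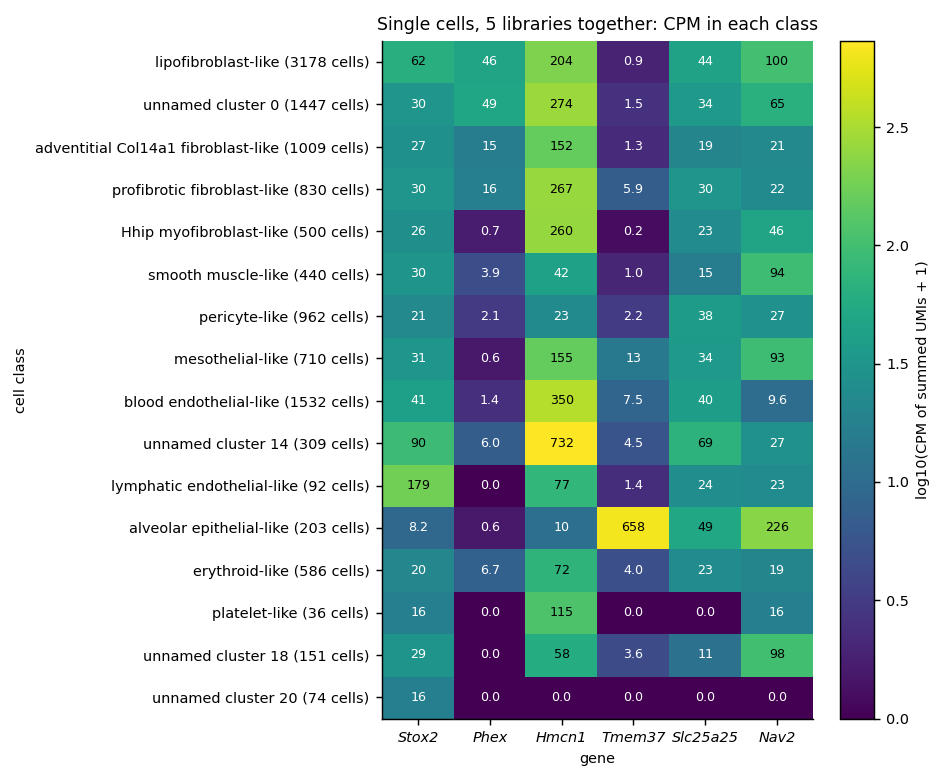
CPM of summed UMIs for 6 genes (columns) in 16 cell classes (rows, with their number of cells), the 5 single-cell libraries together; the colour is log10(CPM + 1). Tmem37 stands out in alveolar epithelial-like cells (658 CPM), and Phex in lipofibroblast-like cells and cluster 0 (46.2 and 49.0 CPM).

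The single-cell libraries, 1 per genotype and week, gave no test, but they are other libraries than those that chose the genes. At week 3, lipofibroblast-like cells held 30.9 CPM of Phex in the Fas+/+ and 58.1 CPM in the Fas-/- library, a log2 ratio of 0.91 (0.66 to 1.16), and cluster 0 held 37.1 and 69.99 CPM, also a log2 ratio of 0.91 (0.64 to 1.19). At week 6 the lipofibroblast-like cells held 54.1 and 56.3 CPM (0.06, -0.18 to 0.29) and cluster 0 held 42.4 and 55.0 CPM (0.37, 0.14 to 0.61). The Fas-/- library was thus higher within both classes at week 3, and in lipofibroblast-like cells at week 6 the interval of the ratio includes 0. Profibrotic fibroblast-like cells went the other way at week 3, with 27.5 CPM in the Fas+/+ and 19.9 CPM in the Fas-/- library. So did adventitial Col14a1 fibroblast-like cells (12.1 and 6.61 CPM). In both of these classes the intervals of the levels overlapped, on 9 to 54 UMIs per library. Over all mesenchymal cells the log2 ratio was 0.79 at week 3 and 0.26 at week 6, and 0.80 and 0.24 without cells whose barcode another library held. With each cell thinned to 3000 UMIs, the week 6 ratio turned to -0.13. In bulk at week 3, markers of lipofibroblasts also ran higher in Fas-/- mice. The summed CPM of 10 markers was 3649 to 6210 (median 4457) in Fas+/+ and 5879 to 7960 (median 6966) in Fas-/- libraries, with 10 of 10 markers on the higher side and a median difference of 0.52. Of these, 0 were called in edgeR, 8 had an unadjusted p under 0.05 and 3 were called by DESeq2. At week 6 the medians were 9225 and 9246. With the lipofibroblast markers as a covariate the week 3 difference in Phex was 0.86 (adjusted p = 0.468). The part of these cells in the difference was not tested beyond that.

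**Figure D3:**
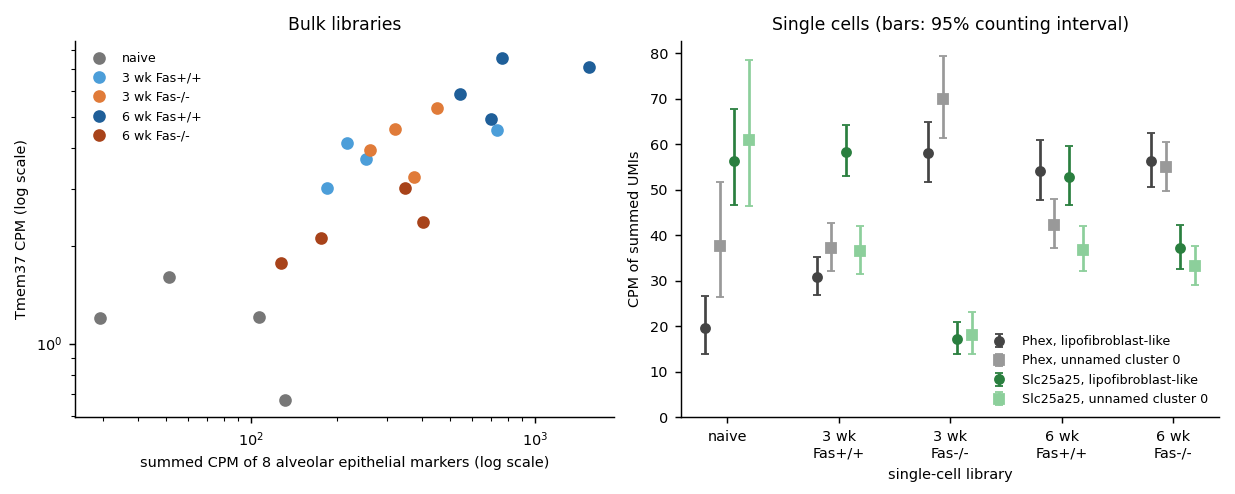
Left, Tmem37 CPM (y axis) against the summed CPM of 8 alveolar epithelial markers (x axis), both on log scales, with 1 point per bulk library. Right, CPM of summed UMIs of Phex and Slc25a25 (y axis) in lipofibroblast-like cells and cluster 0 of the 5 single-cell libraries (x axis), with 95% Poisson intervals. Week 6 Fas+/+ libraries hold 545 to 1552 CPM of epithelial markers and week 6 Fas-/- libraries 127 to 402 CPM; Slc25a25 is lowest in the week 3 Fas-/- single-cell library (17.2 and 18.1 CPM).

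Several related genes of Phex changed after bleomycin. The lists of related genes were written with earlier results of these data known. Bleomycin mice of week 3 differed from naive mice in 6958 genes (44.1%), so that many calls in any list are part of a broad difference. Of 13 tested genes of phosphate handling and mineralization, 9 rose and 0 fell at week 3, with a median of 2.11 beside 0.01 for all genes. Among them were Spp1, encoding osteopontin (4.93), Fgf23 (4.75) and Dmp1, a mineralization matrix protein with 2 counts over the 4 naive libraries and 428 and 518 counts over the Fas+/+ and Fas-/- libraries of week 3. From week 3 to week 6, 7 of the 13 fell and 0 rose, in a comparison that called 34.7% of all genes (2615 higher, 2852 lower). Spp1 is also 1 of the 10 profibrotic fibroblast markers, of which 8 rose at week 3. The naive single-cell library held 0 profibrotic fibroblast-like cells. The part of cell makeup in these changes was not tested. Of the other M13 endopeptidases, 4 were tested: Ece1, which makes endothelin, rose at week 3 (1.49), while Mme, encoding neprilysin, fell by 1.05 and Kel, a blood group antigen of red cells, fell by 4.05. Kel was at 2.68 CPM (SD 2.45, n = 4) in naive mice, where 6 erythroid markers summed to 2992 to 9622 CPM against at most 94.6 CPM at week 3, and 6 of 6 fell. Ece1 varied within the week 3 groups, with means of 379 and 270 CPM and SDs of 231 and 294, as did the endothelial markers, which reached 9087 and 7976 CPM in 1 library of each. The part of these cells in both differences was not tested. Mme stayed lower at week 6 (-0.45, adjusted p = 0.0358). Of all 89 tested genes in the lists of related genes, 1 was called between the genotypes at week 3, Adh1, while 18 had an unadjusted p under 0.05 (1359 of 15773 over all genes) and DESeq2 called 5.

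Hmcn1 (chr1:150562524-150993435, minus strand, 108 exons) rose at week 3 and, averaged over genotypes, fell back by week 6. Naive libraries held 393, 400, 424 and 388 CPM, week 3 Fas+/+ libraries 551, 682, 605 and 676 CPM and week 3 Fas-/- libraries 516, 554, 519 and 664 CPM. At week 6 they held 318, 325, 317 and 397 CPM in Fas+/+ mice and 613, 552, 431 and 519 CPM in Fas-/- mice. All week 3 libraries were above all naive ones, and as a description the week 6 Fas+/+ libraries lay within or below the naive range and the Fas-/- libraries above it. Hmcn1 rose at week 3 by 0.57 (SE 0.0981, adjusted p = 2.18e-04) and fell by 0.49 from week 3 to week 6 (SE 0.0784, adjusted p = 1.88e-04), and the genotypes did not pass the test at week 3 (-0.16, SE 0.111, adjusted p = 0.749). With the lipofibroblast markers as a covariate, neither the rise (0.14) nor the fall (-0.20) was called. In the exons of Hmcn1, 399 bases overlap the opposite-strand gene Gm20631, and whether counting used strand is not given in the sources used here.

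In single cells Hmcn1 was broad. It was highest in cluster 14, 309 cells of low depth led by the endothelial genes Ptprb, Efnb2 and Kit, at 732 CPM (668 to 800), then in blood endothelial-like cells at 350 CPM (339 to 362). The clusters of the blood endothelial-like class differed, with 429 CPM in cluster 3, 361 CPM in cluster 21 and 46.7 CPM in cluster 15. Cluster 0, profibrotic fibroblast-like and Hhip myofibroblast-like cells followed at 274, 267 and 260 CPM, with overlapping intervals, and lipofibroblast-like cells were at 204 CPM. Among the lipofibroblast-like clusters, cluster 7 held 445.5 CPM and clusters 1 and 2 held 191.5 and 171.7 CPM. Pericyte-like cells were low at 22.7 CPM. By number, fibroblasts held most of its UMIs (25.1% in cluster 0, 21.3% in lipofibroblast-like and 17.7% in profibrotic fibroblast-like cells). Blood endothelial-like cells held 14.03%. In the same order, these classes held 19.29%, 21.99%, 13.97% and 8.433% of the UMIs of all genes. Over mesenchymal cells the Fas-/- library was higher at week 3 (281 against 180 CPM, a log2 ratio of 0.64) and lower at week 6 (183 against 217 CPM, -0.25, with an interval of -0.30 to -0.19). Both go the other way from the bulk libraries, in which Hmcn1 was 0.16 lower at week 3 and 0.64 higher at week 6 in Fas-/- mice. Blood endothelial-like cells, which were 29.4% of cells in the week 6 Fas+/+ and 6.997% in the Fas-/- library, held 356 and 365 CPM of Hmcn1.

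Its relatives moved in both directions after bleomycin. Of 7 tested hemicentin and fibulin genes, 2 rose and 4 fell at week 3, where Fbln7 rose by 1.11 and Hmcn2, Fbln5 and Fbln1, the last of which is a basement membrane and elastic fibre protein, fell by 0.85, 0.78 and 0.68. At week 6, of these genes, Fbln7 alone was called against naive mice (1.63, adjusted p = 0.0038). From week 3 to week 6, where 34.7% of all genes were called, 3 of the 7 rose and 1, Fbln2, fell by 0.66.

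Zswim6 (chr13:107724617-107890064, minus strand) rose most evenly with bleomycin. The naive libraries held 22.2, 21.6, 17.2 and 16.8 CPM. At week 3 they held 46.5, 43.3, 46.6 and 45.0 CPM in Fas+/+ and 41.9, 47.6, 47.7 and 43.9 CPM in Fas-/- mice. Every library of week 3 was thus above every naive library, and the genotypes overlapped. At week 6 the Fas+/+ libraries held 22.6, 25.2, 22.5 and 22.5 CPM and the Fas-/- libraries 28.6, 38.0, 33.8 and 38.5 CPM. Zswim6 rose 2.33-fold at week 3 (1.22, SE 0.0911, adjusted p = 9.61e-08), fell by 0.68 from week 3 to week 6 (SE 0.0705, adjusted p = 8.37e-06) and was still above naive mice at week 6 (0.54, SE 0.0885, adjusted p = 0.00108), while the week 3 difference between genotypes was -0.00 (SE 0.0990, adjusted p = 0.998). All 3 calls were kept in each of the 20 fits without 1 library. The week 6 call against naive mice (mean 19.5 CPM, SD 2.84) averages both genotypes. It joins Fas+/+ libraries (23.2 CPM, SD 1.35) with the Fas-/- libraries (34.7 CPM, SD 4.61) by which the gene was chosen. The rise at week 6 was not called with the alveolar epithelial markers as a covariate (0.41), nor the fall with the lipofibroblast markers (-0.68). Zswim6 is not among the 31053 features of the single-cell matrices and was not analysed there. Of 6 tested SWIM-type relatives, 3 rose at week 3 (Zswim5 by 1.71, Zswim4 by 0.43 and Zswim8 by 0.12) and 2 fell (Zswim7 by 0.49 and Zswim1 by 0.35).

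Stox2 (chr8:47180048-47446362, minus strand) varied least. Naive libraries held 43.4, 47.5, 46.8 and 46.3 CPM, and those of week 3 held 45.1, 41.8, 42.9 and 41.6 CPM in Fas+/+ and 45.6, 42.3, 43.9 and 44.4 CPM in Fas-/- mice. At week 6 they held 41.97, 39.6, 39.6 and 37.3 CPM in Fas+/+ and 46.9, 53.1, 55.6 and 56.9 CPM in Fas-/- mice. Naive and week 3 libraries shared 1 narrow range, with 3 of 4 week 6 Fas+/+ libraries below it and 3 of 4 week 6 Fas-/- libraries above it. Stox2 did not pass the genotype test at week 3 (0.04, SE 0.0609, adjusted p = 0.883), nor any test of both genotypes against naive mice or of week 6 against week 3, where it differed by -0.08, -0.00 and 0.08. Its relative Stox1, at 0.689 CPM in naive mice, rose by 1.96 at week 3 and fell by 1.39 to week 6.

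In single cells Stox2 was highest in lymphatic endothelial-like cells at 179 CPM (150 to 212, 92 cells), a class that the naive library lacked. Cluster 14 followed at 90.3 CPM, lipofibroblast-like cells at 62.4 CPM (59.4 to 65.5) and blood endothelial-like cells at 40.8 CPM (37.0 to 45.0), and these intervals did not overlap from one class to the next, while mesothelial-like cells at 31.4 CPM and cluster 0 at 30.3 CPM overlapped. Lipofibroblast-like cells held 36.3% of its UMIs, against 21.99% of the UMIs of all genes. Within them, cluster 7, whose 535 cells had a median of 11.5% mitochondrial UMIs, held 138 CPM against 65.8 and 42.6 CPM in the other 2 clusters of the class. Over mesenchymal cells the Fas-/- library was higher at week 3 (46.3 against 35.6 CPM, a log2 ratio of 0.38, 0.23 to 0.52). At week 6 it held 37.3 against 35.1 CPM (0.09, -0.04 to 0.22), an interval that ends below the bulk difference of 0.42.

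Nav2 (chr7:48908716-49610090, plus strand) was lowest in the Fas+/+ mice of week 3. Naive libraries held 84.1, 96.8, 85.9 and 82.3 CPM. At week 3 the Fas+/+ libraries held 55.1, 55.6, 55.8 and 64.8 CPM and the Fas-/- libraries 82.9, 78.1, 93.7 and 84.4 CPM. The Fas+/+ libraries were below all naive ones, and the Fas-/- libraries overlapped them. At week 6 the levels were 72.7, 74.6, 88.1 and 82.2 CPM in Fas+/+ and 67.5, 66.0, 73.1 and 62.2 CPM in Fas-/- mice, which overlapped. The week 3 difference of 0.55 is part of the contrast that chose Nav2 and is given as a description. Averaged over genotypes Nav2 fell by 0.32 at week 3 (SE 0.0686, adjusted p = 0.00135) and by 0.26 at week 6 (SE 0.0687, adjusted p = 0.0269). The week 6 call was lost in 5 of 20 fits, those without naive replicate 2 or 3, week 6 Fas+/+ replicate 2 or week 6 Fas-/- replicate 2 or 4, with an adjusted p of up to 0.115. A stretch of 295 exonic bases is shared with Gm2788 on the same strand.

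In single cells the highest level of Nav2 was in alveolar epithelial-like cells at 226 CPM (204 to 250, 203 cells), followed by lipofibroblast-like cells at 100.4 CPM (96.6 to 104). Smooth muscle-like and mesothelial-like cells were at 93.7 and 93 CPM, with intervals that overlapped that of lipofibroblast-like cells, and cluster 0 was at 65.2 CPM. Blood endothelial-like cells were at 9.63 CPM. Lipofibroblast-like cells held 37.6% of the Nav2 UMIs and alveolar epithelial-like cells 5.53%, against 21.99% and 1.437% of the UMIs of all genes. Cluster 7 was again the highest of the lipofibroblast-like clusters, at 208 CPM against 101 and 77.3 CPM. Over mesenchymal cells the genotypes were alike in level at week 3 (70.5 CPM in Fas+/+ and 69.6 CPM in Fas-/-, a log2 ratio of -0.02, -0.13 to 0.09), an interval below the bulk difference. At week 6 the Fas-/- library was higher (63.2 against 50.1 CPM, 0.33, 0.23 to 0.44), the other way from bulk. Of the other neuron navigators, Nav3 rose at week 3 (0.58, adjusted p = 0.0322) and Nav1 fell from week 3 to week 6 (-0.35, adjusted p = 0.0181).

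Retinoid genes were read beside Nav2. Of 18 tested, 5 rose and 10 fell at week 3. The retinoic acid-degrading enzyme Cyp26b1 rose by 2.75, while Lrat, which stores retinol as esters, fell by 1.78, the retinol carrier Rbp4 by 1.47 and Aldh1a1, which makes retinoic acid, by 0.97. Rbp4 is also 1 of the 10 adventitial Col14a1 fibroblast markers, of which 7 fell at week 3. The part of cell makeup in these changes was not tested. From week 3 to week 6, where 34.7% of all genes were called, 7 rose, among them Lrat (1.40) and Aldh1a1 (0.86), and 4 fell. Adh1, an alcohol dehydrogenase that acts on retinol, was the related gene called between the genotypes at week 3. It was 0.87 higher in Fas-/- mice (SE 0.114, adjusted p = 0.00782), with means of 209 and 382 CPM, against 404 CPM in naive mice.

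Tmem37 (chr1:120067377-120074074, minus strand, 2 exons) was a rare transcript in bulk, with 14 to 169 counts per library. Naive libraries held 1.21, 1.20, 0.669 and 1.60 CPM. At week 3 they held 4.56, 4.15, 3.01 and 3.70 CPM in Fas+/+ and 4.57, 3.94, 3.26 and 5.30 CPM in Fas-/- mice. At week 6 they held 4.92, 7.10, 7.59 and 5.89 CPM in Fas+/+ and 1.78, 3.02, 2.37 and 2.11 CPM in Fas-/- mice. All bleomycin libraries were above all naive ones, the genotypes overlapped at week 3, and Tmem37 rose at week 3 by 1.79 (SE 0.222, adjusted p = 1.06e-05) and at week 6 by 1.71 (SE 0.222, adjusted p = 1.78e-04).

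In single cells 73.3% of all Tmem37 UMIs came from 203 alveolar epithelial-like cells, which were 1.68% of the cells. Its level there was 658 CPM (620 to 697). The next class, mesothelial-like cells, was at 13.5 CPM, blood endothelial-like cells were at 7.52 CPM, and lipofibroblast-like cells were at 0.923 CPM. A UMI was found in 60.6% of alveolar epithelial-like cells and in 4.50% of blood endothelial-like cells, at medians of 5074 and 5425 UMIs. The genes closest in profile over the 16 classes were Scnn1a, Epn3, St14, Lama3 and Irx2, with r from 0.92 to 0.94, and each was highest in alveolar epithelial-like cells.

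Alveolar epithelial markers moved with Tmem37 in bulk. The summed CPM of 8 markers (Sftpc, Sftpb, Sftpa1, Epcam, Lamp3, Ager, Cldn18 and Rtkn2, none at 0 in a whole group) was 29.2 to 132 in naive mice, 185 to 732 in week 3 Fas+/+ and 261 to 453 in week 3 Fas-/- mice, 545 to 1552 in week 6 Fas+/+ and 127 to 402 in week 6 Fas-/- mice. The week 6 groups did not overlap in this sum, and 0 of 8 markers were on the higher side in Fas-/- mice, with a median difference of -2.001. Of these, 0 were called in edgeR, 8 had an unadjusted p under 0.05 and 1 was called by DESeq2. Against naive mice, all 8 markers rose at both weeks. Per 100 CPM of these markers, Tmem37 was at 0.458 to 1.08 CPM in week 6 Fas+/+ and at 0.590 to 1.40 CPM in week 6 Fas-/- libraries, which overlapped, and at 2.46 UMIs per 100 marker UMIs in the alveolar epithelial-like single cells. In bulk this ratio was 0.507 to 4.10 in naive, 0.623 to 1.91 in week 3 Fas+/+ and 0.870 to 1.51 in week 3 Fas-/- libraries. With the markers as a covariate, Tmem37 was 1.48 above naive mice at week 3 (adjusted p = 0.0292) and 1.46 at week 6, where it was not called (adjusted p = 0.0688), and the week 6 difference between genotypes, as a description, was -1.36. In the single-cell libraries of week 6, each with 53 alveolar epithelial-like cells, Tmem37 within that class was higher in Fas-/- mice (967 against 429 CPM, a log2 ratio of 1.17, 0.90 to 1.44), and over mesenchymal cells it was lower (2.02 against 4.74 CPM, -1.22, -1.70 to -0.77). The calcium channel subunits, 13 tested, fell in 6 cases at week 3 and rose in 0, led by Cacna2d2 (-1.36) and Cacna1g (-1.18). From week 3 to week 6, 5 rose. These comparisons called 44.1% and 34.7% of all genes.

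Slc25a25 (chr2:32414487-32451445, minus strand, 13 exons) differed little from naive mice in most groups. The naive libraries held 110, 106, 119 and 85.1 CPM. At week 3 they held 92.3, 80.2, 88.0 and 98.0 CPM in Fas+/+ and 85.0, 73.9, 74.5 and 132 CPM in Fas-/- mice. At week 6 they held 148, 123, 107 and 92.4 CPM in Fas+/+ and 55.8, 58.8, 63.5 and 53.5 CPM in Fas-/- mice. The week 6 Fas-/- group was below every other library, and the genotypes overlapped at week 3, where the highest Fas-/- value came from the library high in endothelial markers. No tested contrast called it: the genotype difference at week 3 was 0.03 (SE 0.167, adjusted p = 0.983), and the averaged differences from naive mice were -0.21 (adjusted p = 0.240) and -0.35 (adjusted p = 0.144). Without week 3 Fas-/- replicate 4 the latter were -0.34 (adjusted p = 0.0166) and -0.35 (adjusted p = 0.0379), and both were called. In its exons 379 bases overlap the opposite-strand gene Naif1.

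In single cells UMIs of Slc25a25 were spread over 14 of 16 classes, and how many came from free RNA was not estimated. Erythroid-like cells, at a median of 1764 UMIs, had a UMI in 13.1% of cells. Cluster 14 was highest at 69.3 CPM (50.7 to 92.4), followed by alveolar epithelial-like cells at 49.5 CPM (39.4 to 61.2), lipofibroblast-like cells at 43.5 CPM (41.0 to 46.1), blood endothelial-like cells at 39.8 CPM and pericyte-like cells at 37.7 CPM, each overlapping its neighbours. Lipofibroblast-like cells held 28.7% of its UMIs, against 21.99% of the UMIs of all genes. Over mesenchymal cells the Fas-/- library was lower at week 6 (30.3 against 37.8 CPM, a log2 ratio of -0.32, -0.45 to -0.18), the direction seen in bulk. It was also lower at week 3 (17.3 against 39.3 CPM, -1.18, -1.38 to -0.99), where the bulk genotypes did not differ by the test. Within lipofibroblast-like cells at week 3 the levels were 58.4 and 17.2 CPM. The naive, week 3 Fas+/+, week 6 Fas+/+ and week 6 Fas-/- libraries held 56.4, 58.4, 52.9 and 37.2 CPM there, so the week 3 Fas-/- library stood lowest. At week 3 it was also below Fas+/+ in cluster 0, profibrotic fibroblast-like, mesothelial-like and adventitial Col14a1 fibroblast-like cells. It was not lower in pericyte-like (32.03 CPM in Fas+/+ and 43.86 CPM in Fas-/-), Hhip myofibroblast-like (21.06 and 22.09 CPM) or smooth muscle-like cells (11.69 and 12.88 CPM), with overlapping intervals. This library was the shallowest per cell, and the part of depth in these class levels was not tested.

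Carriers and immediate-early genes were read beside Slc25a25. Of 5 tested carriers of ATP-Mg, ATP or phosphate, Slc25a5 and Slc25a3 rose (0.66 and 0.20) and Slc25a23, a calcium-regulated paralog of Slc25a25, fell by 0.87 at week 3 and by 0.45 at week 6. Of 20 immediate-early and CREB-responsive genes, 4 rose at week 3, led by Fosl1 (3.28), Ier3 (2.36) and Egr2 (1.48), and 3 fell (Nr4a1 by 0.69, Nr4a2 by 0.58 and Fos by 0.51). At week 6, Ier3 was still higher (1.25) and Nr4a2 lower (-1.25). Between the genotypes 0 of the 20 were called at week 3 or week 6, where 0.171% and 0.0507% of all genes were. The median of the list was 0.10 at week 3 and 0.02 at week 6, beside -0.00 for all genes at both.

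Promoters of Slc25a25 and Tmem37, which were lower in week 6 Fas-/- mice, are shown. They were picked because the search below found an element in them. CREB is known to bind the element in Slc25a25, and Fos and Jun that in Tmem37. Whether these factors act on either gene was not tested. Sequences are 300 bases, from 250 before to 50 after a start site, from RefSeq on GRCm38.p6, in the direction of the gene. All 7 genes matched, with 10 promoters. Capitals mark the cAMP response element TGACGTCA in 1 of the 3 promoters of Slc25a25 (chr2:32424017-32424316, minus strand, within the gene, the element starting at -150) and an AP-1 element TGANTCA in the promoter of Tmem37 (chr1:120073731-120074030, minus strand, starting at -103), where N is any base.
Slc25a25: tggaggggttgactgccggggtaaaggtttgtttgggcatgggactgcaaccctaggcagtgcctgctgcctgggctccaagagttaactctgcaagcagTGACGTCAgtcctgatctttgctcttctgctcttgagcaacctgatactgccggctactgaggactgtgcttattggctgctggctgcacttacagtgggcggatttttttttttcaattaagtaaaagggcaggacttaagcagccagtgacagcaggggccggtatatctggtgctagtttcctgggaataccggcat
Tmem37: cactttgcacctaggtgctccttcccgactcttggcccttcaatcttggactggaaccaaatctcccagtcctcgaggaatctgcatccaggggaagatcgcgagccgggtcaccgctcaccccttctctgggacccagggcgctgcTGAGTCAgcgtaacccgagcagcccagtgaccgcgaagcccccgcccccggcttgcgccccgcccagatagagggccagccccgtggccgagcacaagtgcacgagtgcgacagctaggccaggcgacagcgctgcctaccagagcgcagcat
Both strands were searched. TGACGTCA was found in 1 of the 10 promoters and in 1.79% of 32851 mouse promoters, and TGANTCA, which does not match TGACGTCA, in 1 of the 10 and in 7.81%. CCAAT was found in 7 of the 10 promoters and in 37.4% of all, and TATAAA in 1, that of Zswim6, and in 13.6% of all. These are matches of letters and not shown sites.

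Compared with naive mice, 4 of the 7 genes were called at week 3 (Zswim6, Hmcn1 and Tmem37 higher, Nav2 lower), in a comparison that called 44.1% of all genes. At week 6, 4 of 7 were called (Phex, Zswim6 and Tmem37 higher, Nav2 lower), where 8.83% of all genes were. The Phex call averages Fas+/+ libraries at the naive level (27.0 CPM ± 1.98 against 26.5 CPM ± 1.02, SD, n = 4) with the Fas-/- libraries (50.7 CPM ± 4.92) by which the gene was chosen, and it was lost without any 1 of the naive libraries. The Zswim6 call likewise averages Fas+/+ libraries (23.2 CPM against 19.5 CPM in naive mice) with the Fas-/- libraries (34.7 CPM) by which it was chosen. Both Nav2 calls average groups of the contrast that chose it. At week 3 the average joins Fas+/+ libraries (57.8 CPM) with Fas-/- libraries (84.8 CPM) that overlapped the naive ones (87.25 CPM). Between weeks 3 and 6, 2 of 7 were called (Zswim6 and Hmcn1, both lower at week 6), where 34.7% of all genes were. The genes that distinguished the genotypes at week 6 thus did not share 1 course after bleomycin. Averaged over genotypes, Zswim6 and Hmcn1 rose early and fell back, and Tmem37 rose at both weeks. Stox2 and Slc25a25 were not called in any of these comparisons. As a description, Hmcn1 went from a mean of 628.5 CPM at week 3 to 339 CPM at week 6 in Fas+/+ mice. In Fas-/- mice it went from 563 to 529 CPM.

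**Figure D4:**
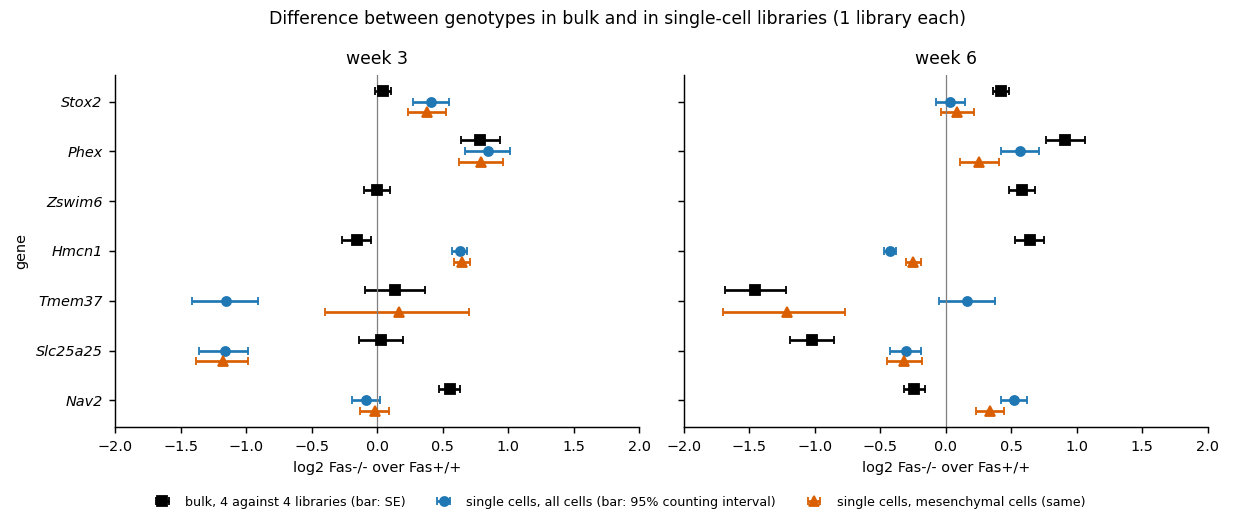
Log2 difference of Fas-/- over Fas+/+ (x axis) for each gene (y axis) at week 3 (left) and week 6 (right). Squares are bulk libraries with SE (4 against 4), circles all single cells and triangles mesenchymal cells with 95% counting intervals (1 library each; Zswim6 was not analysed there). Phex is right of 0 in every series, and Hmcn1 and Nav2 lie on opposite sides in bulk and single cells at week 6.

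In the single-cell libraries of week 6, 369 of 14412 genes (2.56%) were at least 1.5-fold higher and 921 (6.39%) at least 1.5-fold lower in mesenchymal cells of the Fas-/- library, with a median log2 ratio of -0.03 over all genes. Of the 6 genes measured, 0 were past that fold on the higher side and 1, Tmem37, on the lower side. Phex, Stox2, Tmem37 and Slc25a25 had the sign of the bulk difference at week 6, and Hmcn1 and Nav2 the opposite one. Over all cells, which hold the endothelial and epithelial cells too, the log2 ratios at week 6 were 0.56 for Phex, 0.03 for Stox2, 0.52 for Nav2, 0.16 for Tmem37, -0.31 for Slc25a25 and -0.43 for Hmcn1. The Tmem37 ratio thus changed sign with the cells counted. Mesenchymal cells were 52.2% of the week 6 Fas+/+ library and 82.5% of the Fas-/- library, and the part of this difference in the ratios over all cells was not tested.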

How the data were processed

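Lin- lung cells were profiled by bulk RNA-seq (20 libraries) and single-cell RNA-seq (5 libraries). The authors deposited raw counts per gene from trimmed reads aligned with HISAT2 to GRCm38 and counted with HTSeq, and UMI counts per cell from Cell Ranger, and the versions of HISAT2 and HTSeq and the strand setting are not given in the sources used here. Bulk counts were tested with edgeR 4.0.16 (R 4.3.3) after filterByExpr and TMM normalization in 1 quasi-likelihood fit of all 5 groups, with Benjamini-Hochberg adjustment, and log values used a prior count of 2. DESeq2 1.42.0 was an alternative. On simulated counts of the week 3 comparison (15567 genes), the test recovered 77% of the genes simulated to change by a log2 of 1 and 91% of those by a log2 of 2. Smaller changes were not simulated, so the recovery of differences below a log2 of 1 is not given. The other genes kept 1 mean in all groups, and no library was made to stand apart from its group. Of 13900 barcodes, 12059 held 200 to 7500 genes with no more than 20% of UMIs from mitochondria, and these cells were clustered with Seurat 5.3.0 without the 7 genes, their related genes and all markers. With 1 library per group, no test was made on cells.

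The 7 genes and all lists were chosen with earlier results of these data known. From each list of related genes, up to 3 called genes per direction with the greatest change could be named. The week 6 genotype contrast and the interaction chose the genes and were only described. Replicate libraries differed by more than sampling noise.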

Additional observations from a re-analysis of the deposited data

Results flagged for a closer look

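In 4 of 35 groups of 4 libraries, 1 library stood apart from the other 3 in the level of a gene, where chance gives about 1 in 20. These were Phex in naive replicate 3 (24.9 CPM), Zswim6 in week 6 Fas+/+ replicate 2 (25.2 CPM), Hmcn1 in week 6 Fas+/+ replicate 4 (397 CPM) and Nav2 in week 3 Fas+/+ replicate 4 (64.8 CPM).

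The genotype effect on Nav2 differed between the weeks by -0.793 on the log2 scale, by the interaction test in edgeR that chose this gene. The single-cell log2 ratio of Hmcn1 in mesenchymal cells was 0.643 at week 3 and -0.248 at week 6, opposite in sign, and was opposite at both weeks to the bulk difference. The single-cell log2 ratio of Tmem37 at week 6 was -1.22 in mesenchymal cells and 1.17 in alveolar epithelial-like cells. These single-cell differences were not tested, since each genotype and week had 1 library.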

How the results depend on the processing

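Counts of the 7 genes called depended most on covariates. At week 3 between genotypes, 1 was called (Phex), and 0 with only the compared groups or with lipofibroblast markers as a covariate. Against naive mice at week 3, 4 were called and 1 with lipofibroblast markers. At week 6, 4 were called, 0 with alveolar epithelial markers and 2 with lipofibroblast markers. Between weeks 2 were called, and 0 with lipofibroblast markers. In the contrasts that chose them 7 were called, 1 with only the compared groups, 1 with the replicate block, 0 with epithelial and 2 with lipofibroblast markers. Related genes called over the tested contrasts went from 110 to 73 with epithelial and 7 with lipofibroblast markers. Of these markers themselves, 8 of 8 epithelial ones rose and 9 of 10 lipofibroblast ones fell at week 3 against naive mice. Leaving out 1 library gave 0 to 1, 4 to 5, 2 to 5, 2 to 3, 0 to 7 and 94 to 130 calls in the same order. Thinning cells to 3000 UMIs turned the week 6 mesenchymal ratio of Phex to -0.13. The lipofibroblast and Ddx3y covariates and the fit without 4 libraries were chosen after seeing the data.

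Whether the replicate numbers pair the samples is not known. Of 40 same-numbered pairs, 14 correlated above 0.1 (median 0.034), and pairs with different numbers were not computed for comparison. Between the genotypes the correlations were 0.19, 0.40, 0.01 and 0.18 at week 6, and -0.33, 0.29, 0.15 and -0.40 at week 3. With the replicate block the counts in the 4 tested contrasts were 1, 4, 4 and 2, with Phex at week 3 at an adjusted p of 0.0478. It moved the count over all genes at week 3 between genotypes from 27 to 45.

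Over all genes, the 27 calls between genotypes at week 3 were 167 by DESeq2, 65 with Ddx3y, 5 with only the compared groups, 0 with lipofibroblast markers, 1289 without the 4 libraries high in endothelial markers and 0 to 582 without 1 library. The 8 at week 6 were 170, 12, 1, 3, 117 and 0 to 37 in the same order, 0 with epithelial markers or the block. The 1 call of the interaction was 102 by DESeq2, 20 with Ddx3y, 43 with endothelial markers, 3 without a filter or with the block, 250 without those 4 libraries and 0 to 162 without 1 library. The interaction had 0 calls with only the compared groups, with epithelial markers or with lipofibroblast markers. Against naive mice, 6958 calls at week 3 became 2493 with epithelial and 68 with lipofibroblast markers, and 1393 at week 6 became 144, 531, 2233 with only the compared groups, 2254 without those 4 libraries and 724 to 1985 without 1 library. Between weeks, 5467 became 7 with lipofibroblast markers. In single cells, all 6 genes kept their highest named class in the 5 alternatives run. Unnamed clusters, in which Phex, Hmcn1 and Slc25a25 were highest, were left out of this check. At a clustering resolution of 0.4, no separate cluster led by Saa3 and Lcn2 remained. Both genes were then among those leading a profibrotic fibroblast-like class of 2252 cells, against 830 cells in the main clustering. Tmem37 rested on 14 to 169 counts per bulk library.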
